A study of Capra hircus with 4 samples.

Results

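The TGF-beta ligand genes TGFB1, TGFB2 and TGFB3 and the receptor genes TGFBR1, TGFBR2 and TGFBR3 were followed across the cell types of the goat ovary. The 6 genes were taken by name from the 28944 genes of the count matrices, by a rule that uses no measured value, though with earlier results of these data known. Nuclei came from ovaries of 2 Du'an goats of a monotocous group, with a litter size of 1, and 2 Nubian goats of a polytocous group, which the labels give a litter size of at least 3. All 4 goats were about 3 years old and had carried a vaginal device releasing progesterone (300 mg) for 17 days to synchronise estrus, with no superovulation hormone. Each goat gave 1 droplet single-nucleus RNA library, so a goat is the replicate and each breed has n = 2.

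TGF-beta ligands are made as latent precursors that are stored in the matrix or on cell surfaces and must be activated. An active ligand binds the type II receptor TGFBR2, which recruits and phosphorylates the type I receptor TGFBR1, and TGFBR1 passes the signal to SMAD2 and SMAD3. TGFBR3, or betaglycan, is a co-receptor with no kinase of its own: it presents ligands, TGFB2 above all, to the signalling receptors, and it also binds inhibin. In the ovary the pathway is known for its part in granulosa cell growth, in theca and vessel remodelling and in the matrix.

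After filtering, 44734 of 48332 nuclei remained, with a median of 1755 to 3292 UMIs (counted molecules) per nucleus in a library. Clusters were named from marker lists and are called "-like": 13 classes were named, none of them oocytes, and 4527 nuclei were left without a name. Levels are given as CPM, a gene's UMIs relative to all UMIs in the summed nuclei of a class in a goat, and these sums held between 73012 and 30585948 UMIs. Smooth muscle-like nuclei held summed stromal markers at 4452 to 5591 CPM and smooth muscle markers at 3367 to 4794 CPM. Their fibroblast markers summed to 1528 to 2922 CPM. No stromal class was named, so stromal nuclei may be among the smooth muscle-like nuclei. In pericyte-like nuclei the pericyte markers summed to 798 to 1241 CPM. Smooth muscle markers summed to 3023 to 5448 CPM there and stromal markers to 2864 to 5982 CPM. Smooth muscle and stromal nuclei may thus be among the pericyte-like nuclei. No B cell class was named either. B cell markers summed to 268 to 1061 CPM in macrophage-like and 269 to 508 CPM in T or natural killer-like nuclei. In the other classes they reached at most 61.7 CPM, so B cells may be among these immune nuclei. A class entered only in goats with at least 20 nuclei of it. That left ciliated-like nuclei with 2 goats and fibroblast-like nuclei with 1 goat, Nubian replicate 1. Any pair of libraries shared 54 to 131 cell barcodes. Free RNA adds UMIs to nuclei that do not express a gene. The granulosa genes CYP19A1 and FSHR, aromatase and the FSH receptor, gave a scale for it: outside the granulosa classes their median level was 14.0% and 10.4% of that in granulosa-like nuclei. Over classes and goats the level ran from 0 to 26.4% for CYP19A1 and from 1.53% to 33.7% for FSHR. No expression is read here from a level at or under 14.0% of a gene's highest class, the background scale. Levels from there to 33.7% of the highest class still lie inside the range of these 2 genes. The part of free RNA in such levels was not tested for any gene. The scale comes from granulosa genes, and whether it holds for genes highest in smaller classes was not tested.

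Each class was set against the mean of the others with edgeR's quasi-likelihood test, with the goat as a block and adjustment over all genes. Of the 72 pairs of a TGF-beta gene and a class, 28 were higher and 20 lower at an adjusted p under 0.05, while over all genes 18.6% of such tests were higher and 15.2% lower. The classes thus differ in a large share of all genes, and the counts for these genes describe where each one is high or low.

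By class, blood endothelial-like nuclei had 4 of the 6 genes higher and 1 lower, where 17.8% and 11.6% of all genes were, and lymphatic endothelial-like nuclei 3 and 0 (16.3% and 10.1%). Pericyte-like nuclei had 4 higher and 0 lower (7.37% and 4.52%), as did smooth muscle-like nuclei (17.2% and 5.75%). Macrophage-like nuclei had 3 higher and 3 lower (29.9% and 24.0%), and T or natural killer-like nuclei 2 and 3 (29.2% and 27.9%).

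In granulosa-like nuclei 1 gene was higher and 4 were lower (24.0% and 25.7%). The cycling granulosa-like class had 2 genes higher and 4 lower (22.2% and 24.3%). Common progenitor-like nuclei had 1 higher and 1 lower (20.3% and 19.8%), as did theca-like (8.78% and 9.26%) and ciliated-like nuclei (16.3% and 8.45%). Epithelial-like nuclei had 2 higher and 2 lower (13.8% and 11.5%).

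**Figure D1:**
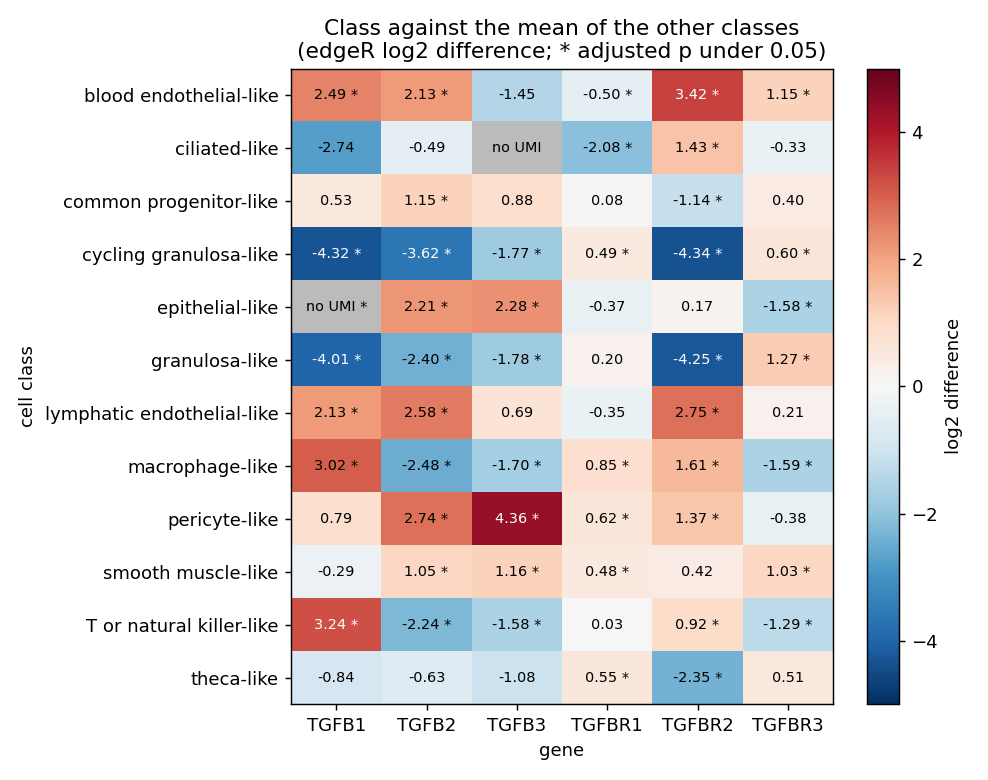
Log2 difference of each class (rows) from the mean of the other classes for each gene (columns), from edgeR; red is higher, blue is lower, an asterisk marks an adjusted p under 0.05 and grey marks a class in which no UMI was seen. TGFB1 has its top values in the immune classes (3.24 and 3.02), while TGFB2 and TGFB3 both peak in pericyte-like nuclei (2.74 and 4.36). Every class called higher for TGFB3 is also called higher for TGFB2, and TGFB1 and TGFB2 share both endothelial-like classes. TGFBR2 runs from 3.42 in blood endothelial-like to -4.34 in cycling granulosa-like nuclei, and TGFBR1 stays within 0.85 of 0 outside ciliated-like nuclei.

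Among the ligands, TGFB1, which is best known as an immune regulator, was highest in immune and endothelial nuclei. In T or natural killer-like nuclei its level was 67.9 and 63.4 CPM in Du'an replicates 1 and 2 and 70.9 and 60.2 CPM in Nubian replicates 1 and 2. Macrophage-like nuclei gave 49.4, 56.6, 44.4 and 71.1 CPM in the same order of goats. Neither immune class stood apart from the other, since 3 of 4 goats had the higher level in T or natural killer-like nuclei. Against the mean of the other classes TGFB1 was higher by 3.24 (SE 0.26, edgeR adjusted p = 1.49e-13) on the log2 scale in T or natural killer-like nuclei and by 3.02 (SE 0.27, edgeR adjusted p = 1.79e-12) in macrophage-like nuclei.

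Blood endothelial-like nuclei followed with 35.7, 34.6, 43.1 and 53.3 CPM, below macrophage-like nuclei in every goat. Lymphatic endothelial-like nuclei held 36.8, 31.4, 29.8 and 29.3 CPM. Both endothelial classes passed the test, with log2 differences of 2.49 (SE 0.28, edgeR adjusted p = 1.75e-09) and 2.13 (SE 0.31, edgeR adjusted p = 3.78e-07). The next classes in the order were pericyte-like, with 5.74 to 21.6 CPM, and common progenitor-like, with 4.36 to 29.0 CPM, and neither was called. Their means were 21.4% and 19.2% of the highest class, inside the range of CYP19A1 and FSHR outside the granulosa classes.

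Granulosa nuclei, the hormone-producing cells around the oocyte, held almost no TGFB1. Granulosa-like nuclei had 0.789, 0.499, 0.654 and 0.388 CPM, a total of 40 UMIs, and their log2 difference was -4.01 (SE 0.76, edgeR adjusted p = 4.26e-05). Cycling granulosa-like nuclei were lower as well (log2 difference -4.32, SE 0.78, edgeR adjusted p = 1.78e-05). No TGFB1 UMI was seen in epithelial-like nuclei of any goat among 2814769 UMIs. The limit that this count allows (3 UMIs over the class, counting error only) puts their level at least 61.6-fold lower than that of T or natural killer-like nuclei, and the class was called lower (edgeR adjusted p = 0.000356). Nubian replicate 2 gave 2170249 of these UMIs, and without it the bound was 14.5-fold. With finer clusters (a resolution of 1.2) the difference was 0.21 and not called (adjusted p = 0.706). In 6 of 12 classes TGFB1 lay at or below the background scale. Smooth muscle-like nuclei, at 11.1% of the highest class, were above granulosa-like nuclei in 4 of 4 goats. Their mean was 12.5-fold of the granulosa-like mean, and the part of free RNA in it was not tested.

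**Figure D2:**
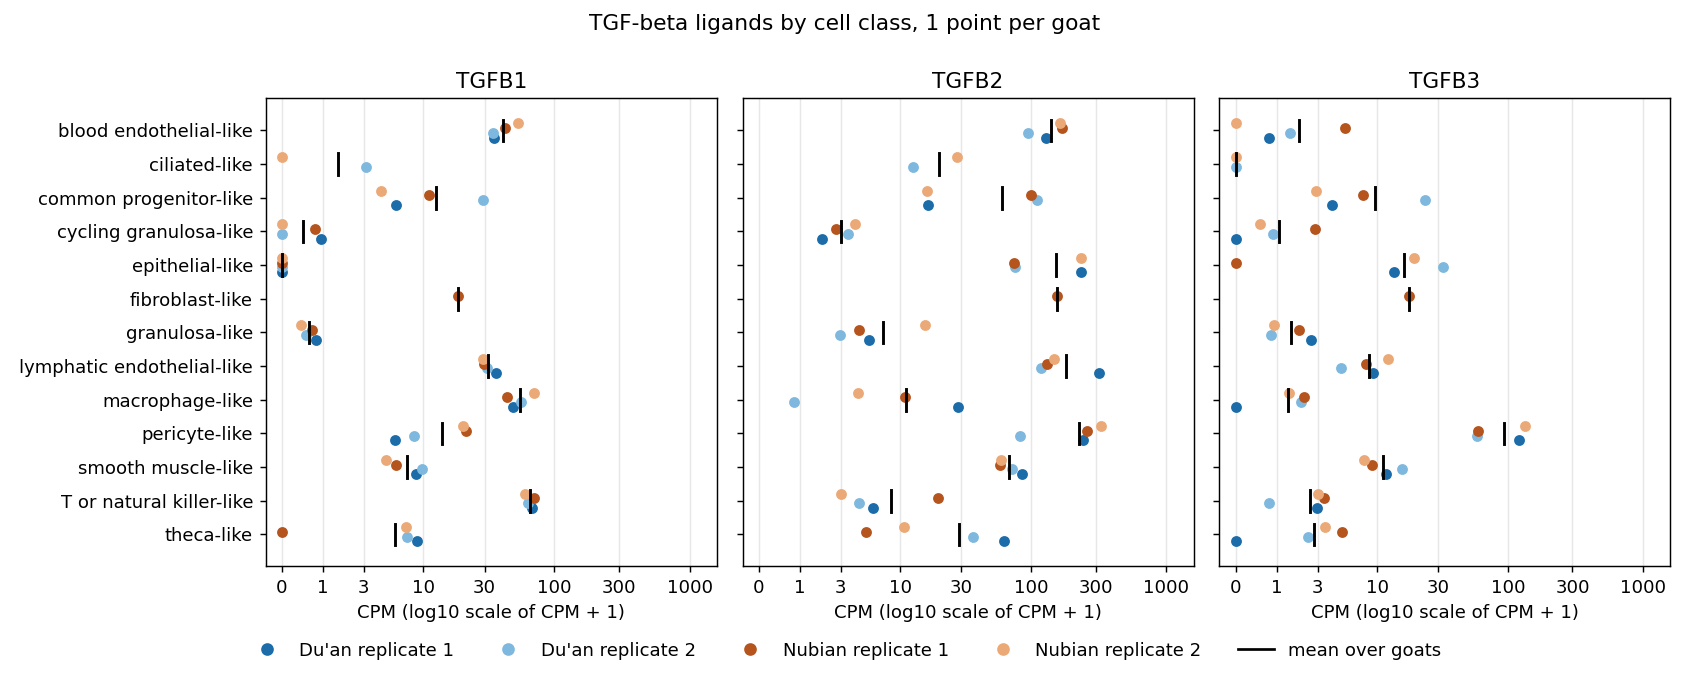
Level of the 3 ligand genes (horizontal axis, CPM on a log10 scale of CPM + 1) in each cell class, with 1 point per goat and a black line for the mean over the goats shown; fibroblast-like nuclei have 1 goat. TGFB1 has its highest mean in T or natural killer-like nuclei (60.2 to 70.9 CPM), and the macrophage-like range overlaps theirs. TGFB2 is spread over endothelial-like, pericyte-like and epithelial-like nuclei, and TGFB3 is above 50 CPM in pericyte-like nuclei of every goat.

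TGFB2, the ligand that depends most on betaglycan, was highest in vessel-associated and epithelial nuclei. Pericyte-like nuclei, named for the contractile cells that wrap small vessels, held 241, 83.3, 259 and 329 CPM. Lymphatic endothelial-like nuclei held 320, 119, 131 and 149 CPM, with Du'an replicate 1 far above the other goats. Epithelial-like nuclei had 233, 75.3, 75.1 and 233 CPM, with 1 goat of each breed high and 1 low. Blood endothelial-like nuclei had 128, 94.7, 170.5 and 164 CPM.

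These 4 classes overlapped one another, and the first step in the order that every goat shared was from epithelial-like to smooth muscle-like nuclei. Their log2 differences from the other classes were 2.74 (SE 0.43) in pericyte-like, 2.58 (SE 0.35) in lymphatic endothelial-like, 2.21 (SE 0.41) in epithelial-like and 2.13 (SE 0.35) in blood endothelial-like nuclei. All 4 passed, with edgeR adjusted p of 3.61e-06, 7.98e-08, 4.88e-05 and 3.89e-06. Smooth muscle-like nuclei, with 58.3 to 85.7 CPM, were called at a log2 difference of 1.05 (SE 0.37, edgeR adjusted p = 0.036), and the call was lost without Du'an replicate 1 or 2 or Nubian replicate 1 (adjusted p = 0.122, 0.189 and 0.0603), with DESeq2 or its size factors (0.158 and 0.076) and at resolutions of 0.4 and 1.2 (0.2 and 0.194).

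Common progenitor-like nuclei are named for the granulosa subtype the study places at the start of granulosa differentiation. TGFB2 was 110.3 and 100.5 CPM in those of Du'an replicate 2 and Nubian replicate 1. In those of Du'an replicate 1 and Nubian replicate 2 it was 16.6 and 16.2 CPM, so these nuclei split by goat. Their log2 difference of 1.15 (SE 0.39, edgeR adjusted p = 0.0167) fell to 0.25 without Du'an replicate 2 (adjusted p = 0.702) and to 0.85 without Nubian replicate 1 (adjusted p = 0.167), and was not called with DESeq2 or its size factors or at a resolution of 0.4 (0.0634, 0.0508 and 0.06). TGFB2 was lower than in the other classes in cycling granulosa-like (-3.62, SE 0.62), macrophage-like (-2.48, SE 0.62), granulosa-like (-2.40, SE 0.48) and T or natural killer-like nuclei (-2.24, SE 0.59). With coarser clusters (a resolution of 0.4) the macrophage-like difference was 0.024 and not called (adjusted p = 0.967). In granulosa-like nuclei TGFB2 was 5.52, 2.96, 4.45 and 15.6 CPM. It lay at or below the background scale in 6 of 12 classes, including all those called lower. Smooth muscle-like and common progenitor-like TGFB2 means were 30.2% and 26.7% of the pericyte-like mean. These lie inside the range of CYP19A1 and FSHR outside the granulosa classes. The single fibroblast-like library held 156 CPM and entered no test.

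TGFB3 had its highest level in pericyte-like nuclei, at 121, 58.3, 59.4 and 134 CPM, though they held only 4.96% to 13.4% of a goat's TGFB3 UMIs. Every goat had its highest tested level there, and the log2 difference was 4.36 (SE 0.45, edgeR adjusted p = 3.43e-10). The counts behind it are small, 63 UMIs in 4 goats. Epithelial-like nuclei held 13.7, 32.3, 0 and 19.4 CPM and were called higher by 2.28 (SE 0.49, edgeR adjusted p = 0.000342). That call was lost without Nubian replicate 2 (2.08, edgeR adjusted p = 0.0557). The epithelial-like mean was 17.6% of the pericyte-like mean, inside the range of CYP19A1 and FSHR outside the granulosa classes. Smooth muscle-like nuclei, within the background scale, had 11.8, 15.9, 9.12 and 7.86 CPM, with a log2 difference of 1.16 (SE 0.37, edgeR adjusted p = 0.0185) that was lost without Du'an replicate 1 or 2 (0.96 and 0.85, adjusted p = 0.154 and 0.109), with DESeq2 (0.0891) and at resolutions of 0.4 and 1.2 (0.252 and 0.169).

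In 10 of 12 classes TGFB3 lay at or below the background scale. Among them it was called lower in granulosa-like (-1.78, SE 0.45, edgeR adjusted p = 0.00112), cycling granulosa-like (-1.77, SE 0.57, edgeR adjusted p = 0.00993), macrophage-like (-1.70, SE 0.68, edgeR adjusted p = 0.0332) and T or natural killer-like nuclei (-1.58, SE 0.67, edgeR adjusted p = 0.0412). The T or natural killer-like call was lost when any goat was left out (adjusted p from 0.0526 to 0.364), and the macrophage-like call when any goat but Du'an replicate 2 was. With coarser clusters the macrophage-like difference was 0.039 (adjusted p = 0.954). Ciliated-like nuclei had no TGFB3 UMI among 752494, at least 23.3-fold below pericyte-like nuclei by the same limit. The bound was 15.2-fold without Du'an replicate 2 and 8.39-fold without Nubian replicate 2. Smooth muscle-like, common progenitor-like and lymphatic endothelial-like nuclei, all within the background scale, were above granulosa-like nuclei in 4 of 4 goats. Their TGFB3 means were 7.19-fold, 6.19-fold and 5.57-fold of the granulosa-like mean. The next shares are for Du'an replicates 1 and 2 and Nubian replicate 1. Smooth muscle-like nuclei held 27.4%, 16.3% and 21.9% of TGFB3 UMIs and 12.3%, 3.14% and 10.3% of all UMIs. Common progenitor-like nuclei held 42.0%, 29.1% and 8.15% of TGFB3 UMIs and 53.8%, 3.72% and 4.60% of all UMIs. For lymphatic endothelial-like nuclei these were 4.46%, 4.96% and 7.73%, and 2.56%, 3.03% and 4.06%. The part of free RNA in the levels of these 3 classes was not tested.

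Among the receptors, TGFBR2, the ligand-binding kinase, separated more neighbouring classes than the other 5 genes did, with 4 of 11 steps in the order shared by all 4 goats. Steps to or from ciliated-like nuclei, seen in 2 goats, were not counted as separated. Blood endothelial-like nuclei held 780.1, 903, 701 and 804 CPM. Lymphatic endothelial-like nuclei held 473, 588, 441 and 515 CPM, lower in each of the 4 goats. The paired difference between them was 0.66 ± 0.04 on the log2 scale (SD, n = 4). Against the mean of the other classes they were higher by 3.42 (SE 0.17, edgeR adjusted p = 6.57e-21) and 2.75 (SE 0.18, edgeR adjusted p = 6.63e-17).

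Macrophage-like nuclei had 190.5, 287, 279 and 235 CPM and pericyte-like nuclei 218, 275, 199.8 and 298 CPM, and these neighbours did not separate. TGFBR2 was called higher in both (1.61, SE 0.20, and 1.37, SE 0.24), in ciliated-like nuclei (1.43, SE 0.31) and in T or natural killer-like nuclei (0.92, SE 0.21). The macrophage-like, pericyte-like, ciliated-like and T or natural killer-like means were 31.1%, 31.1%, 24.4% and 20.5% of the blood endothelial-like mean. These levels also lie inside the range of CYP19A1 and FSHR outside the granulosa classes. In epithelial-like and smooth muscle-like nuclei, with mean levels of 137 and 120 CPM, the differences of 0.17 and 0.42 were not called.

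At the other end, granulosa-like nuclei held 3.94, 4.80, 7.39 and 4.14 CPM of TGFBR2 and cycling granulosa-like nuclei 3.57 to 6.62 CPM. That is 0.636% and 0.658% of the blood endothelial-like level, below the background scale. The log2 differences were -4.25 (SE 0.31, edgeR adjusted p = 1.42e-14) and -4.34 (SE 0.34, edgeR adjusted p = 5.11e-14). Theca-like nuclei, the steroid-producing cells in the outer follicle wall, had 17.9, 34.0, 10.2 and 25.0 CPM. They were lower (log2 difference -2.35, SE 0.37, edgeR adjusted p = 6.39e-06), though above cycling granulosa-like nuclei in each goat. Common progenitor-like nuclei had 23.1, 96.4, 27.9 and 20.5 CPM and a log2 difference of -1.14 (SE 0.25, edgeR adjusted p = 0.000305). The means of theca-like and common progenitor-like nuclei were 2.73% and 5.26% of the blood endothelial-like level, also within the background scale, so no expression is read from them. Both classes were above granulosa-like nuclei in 4 of 4 goats, with means 4.30-fold and 8.28-fold of the granulosa-like mean. The part of free RNA in these levels was not tested.

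**Figure D3:**
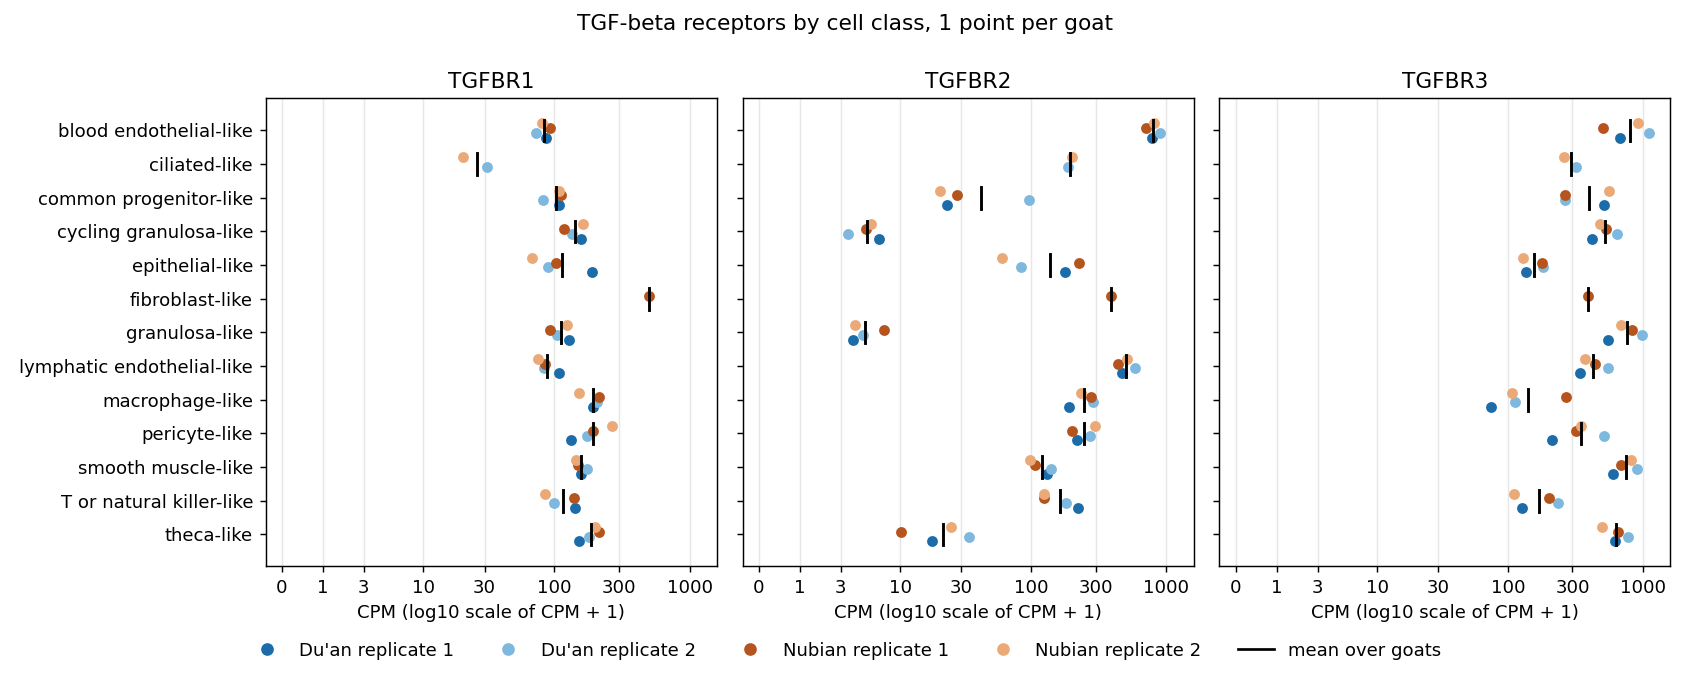
Level of the 3 receptor genes (horizontal axis, CPM on a log10 scale of CPM + 1) in each cell class, with 1 point per goat and a black line for the mean over the goats shown; fibroblast-like nuclei have 1 goat. TGFBR1 and TGFBR3 have UMIs in every class, while TGFBR2 falls from 797 CPM in blood endothelial-like to 5.07 CPM in granulosa-like nuclei.

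TGFBR1, the signalling kinase, lay above the background scale in every class tested but ciliated-like nuclei, where it was at 13.6% of the highest class. Leaving out ciliated-like and fibroblast-like nuclei, mean levels ran from 83.4 CPM in blood endothelial-like to 192 CPM in pericyte-like nuclei, and no neighbouring classes in the order were separated. Macrophage-like nuclei held 195, 206, 214 and 152 CPM and were higher by 0.85 (SE 0.13, edgeR adjusted p = 2.42e-07). Smaller differences were called in pericyte-like (0.62), theca-like (0.55), cycling granulosa-like (0.49) and smooth muscle-like nuclei (0.48). Each of these 4 calls was lost without Du'an replicate 2 and without Nubian replicate 2, with differences from 0.15 to 0.55. The pericyte-like and theca-like calls were also lost without Nubian replicate 1, and again with no filter on low counts. So was the pericyte-like call in nuclei of at least 1000 UMIs and in sums of at least 50 nuclei. Removing the 10% highest doublet scores lost the theca-like call, and DESeq2's size factors the cycling granulosa-like call. At a resolution of 1.2 the pericyte-like, cycling granulosa-like and smooth muscle-like calls were lost.

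TGFBR1 was lower in blood endothelial-like nuclei, at 87.3, 73.3, 92.3 and 80.7 CPM (-0.50, SE 0.14, edgeR adjusted p = 0.0059). The 2 goats with ciliated-like nuclei gave 31.6 and 20.7 CPM from 19 UMIs (-2.08, SE 0.28, edgeR adjusted p = 7.48e-08). Granulosa-like nuclei, at 129, 105, 92.9 and 125 CPM, did not pass (0.20, SE 0.13, edgeR adjusted p = 0.191). The fibroblast-like library of Nubian replicate 1 held 502 CPM, with no second goat to set beside it.

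TGFBR3, the betaglycan gene, was abundant in both a vascular and a follicular class. Blood endothelial-like nuclei had 675, 1105, 505 and 906 CPM, granulosa-like nuclei 545, 970.2, 821 and 683 CPM, and smooth muscle-like nuclei 599, 899.8, 686 and 807 CPM. The ranges of the 3 classes overlapped throughout. They were higher than the other classes by 1.15 (SE 0.17), 1.27 (SE 0.17) and 1.03 (SE 0.17), with edgeR adjusted p of 8.23e-07, 7.15e-08 and 8.12e-06. Cycling granulosa-like nuclei were called at 0.60 (SE 0.18, edgeR adjusted p = 0.0062), though not with DESeq2 (adjusted p = 0.0624) or at a resolution of 1.2 (0.11), and theca-like nuclei, at 617, 775, 648 and 493 CPM, missed the threshold (0.51, SE 0.19, edgeR adjusted p = 0.0596).

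TGFBR3 was lower in macrophage-like (-1.59, SE 0.23), epithelial-like (-1.58, SE 0.25) and T or natural killer-like nuclei (-1.29, SE 0.22). Macrophage-like nuclei held 75.2, 113, 269.5 and 108 CPM, with Nubian replicate 1 above the rest. No class had TGFBR3 at or below the background scale. Macrophage-like, epithelial-like and T or natural killer-like means were 18.7%, 20.7% and 22.3% of the granulosa-like mean. These lie inside the range of CYP19A1 and FSHR outside the granulosa classes. TGFBR3 is high in granulosa-like nuclei, as these 2 genes are, so no expression is read from these levels either. Granulosa-like nuclei thus had a high TGFBR3 level, a TGFBR1 level that was not called and TGFBR2 within the background scale.

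Named clusters within a class were not uniform. These values are a description with no test, since the clusters were seen before they were compared. Macrophage-like nuclei formed a VSIG4 cluster and a shallower cluster with complement C1q genes, with a median of 3333 and 820.5 UMIs per nucleus. TGFBR1 was 227 to 242 CPM in the VSIG4 cluster and 61.5 to 80.3 CPM in the C1q cluster, and TGFBR2 was 235 to 427 and 41.0 to 123 CPM. Both receptors were lower in the C1q cluster in all 4 goats. The part of depth in this was not tested.

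T or natural killer-like nuclei held a small cluster with the cytotoxic genes GNLY and CCL5, with at least 20 nuclei in 3 goats. TGFB1 was 81.0, 108 and 69.4 CPM in it and 62.5, 61.6 and 51.8 CPM in the larger cluster of the same goats. TGFBR1 went the other way, with 48.6, 73.6 and 40.0 CPM against 103, 156 and 127 CPM. TGFBR2 and TGFBR3 were lower in the cytotoxic cluster in those goats too. Over the whole class these 2 genes were at 20.5% and 21.1% of their highest class. The part of free RNA in their levels was not tested.

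Granulosa nuclei were then divided again into common progenitor-like, mural-like, cycling and non-mural nuclei and tested among themselves. Of 24 pairs of a TGF-beta gene and a subtype, 5 were higher and 0 lower, against 11.6% and 10.1% over all genes; 7 of the others had an unadjusted p under 0.05 and a negative difference, and DESeq2 called 3 of them lower: TGFB2 in mural-like and in cycling nuclei and TGFBR3 in common progenitor-like nuclei. In common progenitor-like nuclei 4 were higher, where 18.3% of all genes were and 16.5% were lower: TGFB1 (4.51, SE 0.44, edgeR adjusted p = 1.54e-05), TGFB2 (3.82, SE 0.55, edgeR adjusted p = 0.000258), TGFB3 (2.63, SE 0.54, edgeR adjusted p = 0.00292) and TGFBR2 (2.94, SE 0.33, edgeR adjusted p = 4.24e-05). In common progenitor-like nuclei TGFB3 and TGFBR2 were at 10.3% and 5.26% of their highest class, within the background scale. Cycling nuclei had 1 higher (11.7% of all genes higher, 6.7% lower), TGFBR1 by 0.36 (SE 0.09, edgeR adjusted p = 0.0169), a call lost without any goat but Nubian replicate 1. TGFBR3 had its lowest mean in common progenitor-like nuclei (399 CPM, against 729 in mural-like and 807 in non-mural nuclei), a difference of -0.68 that was not called (SE 0.26, edgeR adjusted p = 0.0644).

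**Figure D4:**
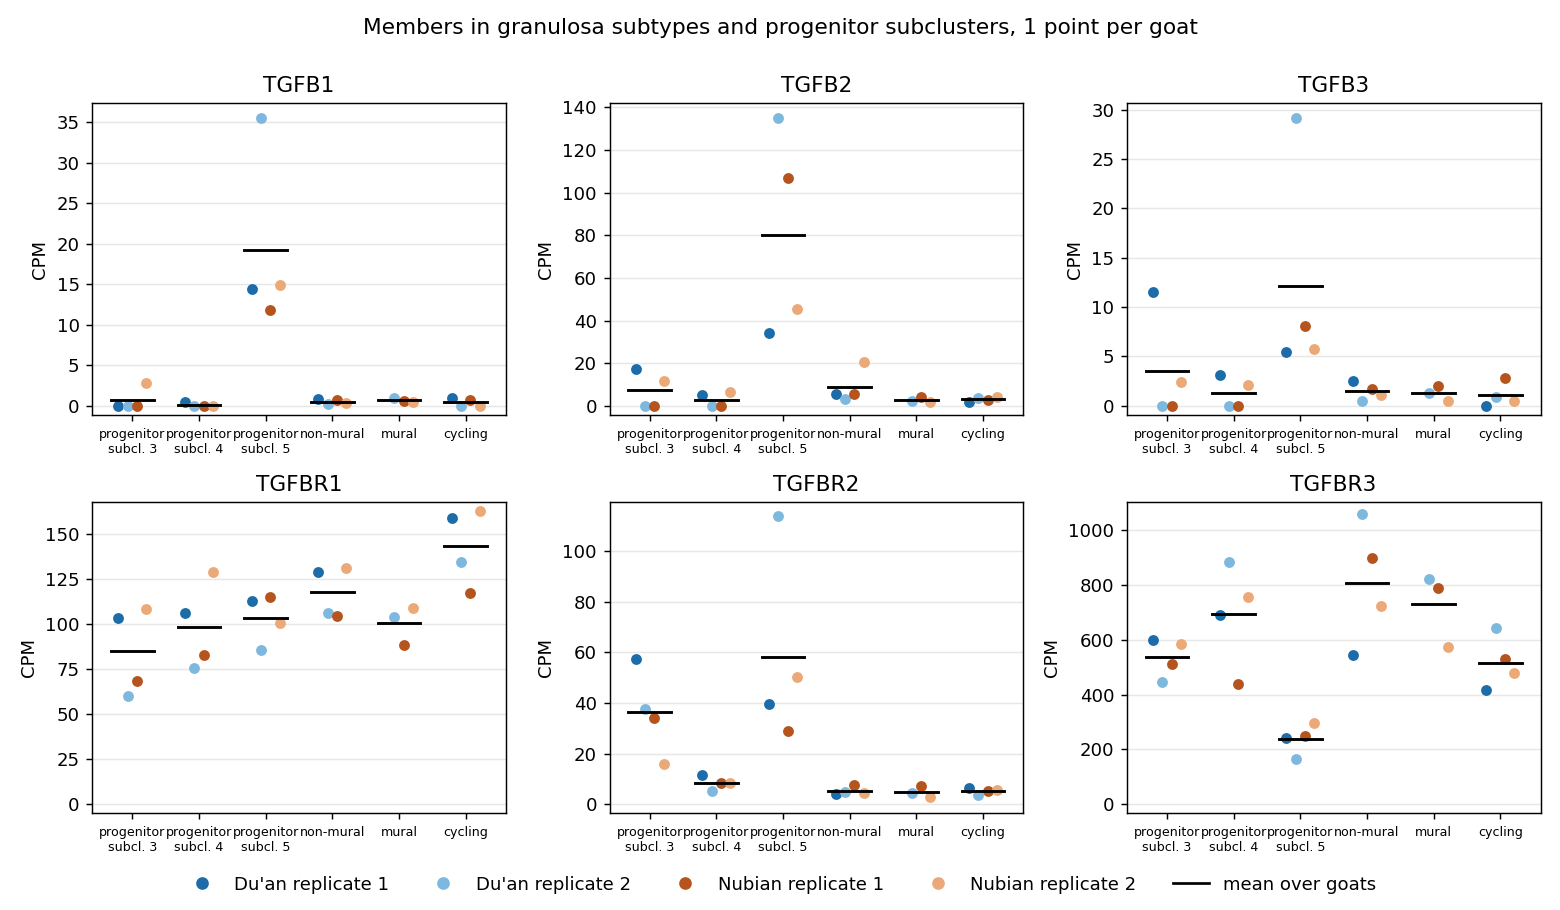
Level of each gene (vertical axis, CPM) in the 3 progenitor subclusters and the other granulosa subtypes, with 1 point per goat with at least 20 nuclei and a black line for their mean. Progenitor subcluster 5 has TGFB1 at 11.9 to 35.6 CPM and TGFBR3 at 166 to 298 CPM, while subclusters 3 and 4 have TGFB1 at 0 to 2.78 CPM and TGFBR3 at 440.2 to 885 CPM.

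TGFB1 and TGFB2 were concentrated in 1 of 3 progenitor subclusters, a description with no test. Subcluster 5, led by PTPRE, RBMS3 and RUNX2, held TGFB2 at 34.0, 135, 107 and 45.3 CPM, whereas subclusters 3 and 4 held 0 to 17.2 CPM. TGFB1 was 14.4, 35.6, 11.9 and 14.9 CPM in it and at most 2.78 CPM in the others. TGFBR3 ran the other way, at 243, 166, 251 and 298 CPM against 440.2 to 885 CPM. All 4 goats showed these directions, but subclusters 3 and 4 were each mostly of 1 goat. Nubian replicate 2 gave 2769 of the 2960 nuclei of subcluster 3, and Du'an replicate 1 gave 1935 of the 2174 of subcluster 4. Nubian replicate 1 had 24 and 38 nuclei in them, too few for its 0 TGFB1 UMIs to show a direction. TGFB3 was 5.43, 29.2, 8.06 and 5.71 CPM in subcluster 5. It was higher there than in subclusters 3 and 4 in Du'an replicate 2 and Nubian replicate 2. Du'an replicate 1 had 11.5 CPM, from 2 UMIs, in subcluster 3. The 0 TGFB3 UMIs of Nubian replicate 1 in subclusters 3 and 4 again come from too few nuclei to show a direction.

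TGFBR2 was less distinct, at 28.8 to 114 CPM in subcluster 5, 16.0 to 57.5 in subcluster 3 and 5.40 to 11.7 in subcluster 4. Subcluster 5 made up 63.8% and 89.1% of the progenitor nuclei of Du'an replicate 2 and Nubian replicate 1 and 34.7% and 10.2% of those of Du'an replicate 1 and Nubian replicate 2, the same goats that were high and low in TGFB2. In the whole progenitor class the summed smooth muscle markers were 737 to 1570 CPM and the fibroblast markers 57.4 to 295 CPM over goats. Stromal markers summed to 550 to 1969 CPM there. Granulosa markers were 1923 to 2823 CPM, against 7675 to 9456 CPM in granulosa-like nuclei. In smooth muscle-like and pericyte-like nuclei they were 1284 to 2604 and 1160 to 2281 CPM, which overlaps the progenitor class. Of the granulosa-like level, progenitor nuclei held 2.59% to 9.56% for CYP19A1 and 21.0% to 55.1% for FSHR. Common progenitor markers were 2134 to 3515 CPM, against 335 to 479 CPM in granulosa-like nuclei and 2680 CPM in the fibroblast-like library. They were 1667 to 2520 CPM in epithelial-like and 1141 to 2539 CPM in pericyte-like nuclei, which overlaps the progenitor class. Smooth muscle-like nuclei held 1315 to 1495 CPM and T or natural killer-like nuclei 1078 to 1893 CPM, so this list is not particular to the progenitor class. The part of other cell types in these levels was not tested. The mural subclusters were each mostly of 1 goat (93.9% to 99.6% of that goat's mural-like nuclei), and mural-like TGFBR3 was 824, 791 and 573 CPM in the 3 goats with such nuclei.

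The deposited granulosa marker tables list only genes that passed the authors' criteria and give shares pooled over goats. There the authors' share of nuclei with a TGFBR3 UMI was 80.9% in cumulus and 78.1% in mural granulosa, and 80.6%, 79.0% and 77.5% at the primary, secondary and antral stages. For TGFBR1 the authors' share was 33.6% in cumulus and 32.3% in common progenitor granulosa, and 32.3%, 35.9% and 36.5% at the primordial, primary and secondary stages. No ligand gene and no TGFBR2 is listed in them.

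The breeds were compared within each of the 11 classes present in all goats, to ask whether the polytocous and monotocous goats differed. Of 51 pairs of a gene and a class that could be tested, 0 passed with edgeR, 1 had an unadjusted p under 0.05, and DESeq2 called 0. Over all genes edgeR also called 0% of 99081 tests, with 3.90% at an unadjusted p under 0.05, while DESeq2 called 338. The 2 goats of each breed did not overlap in 12 of the 51 pairs, or 23.5%, against 30.4% over all genes.

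**Figure D5:**
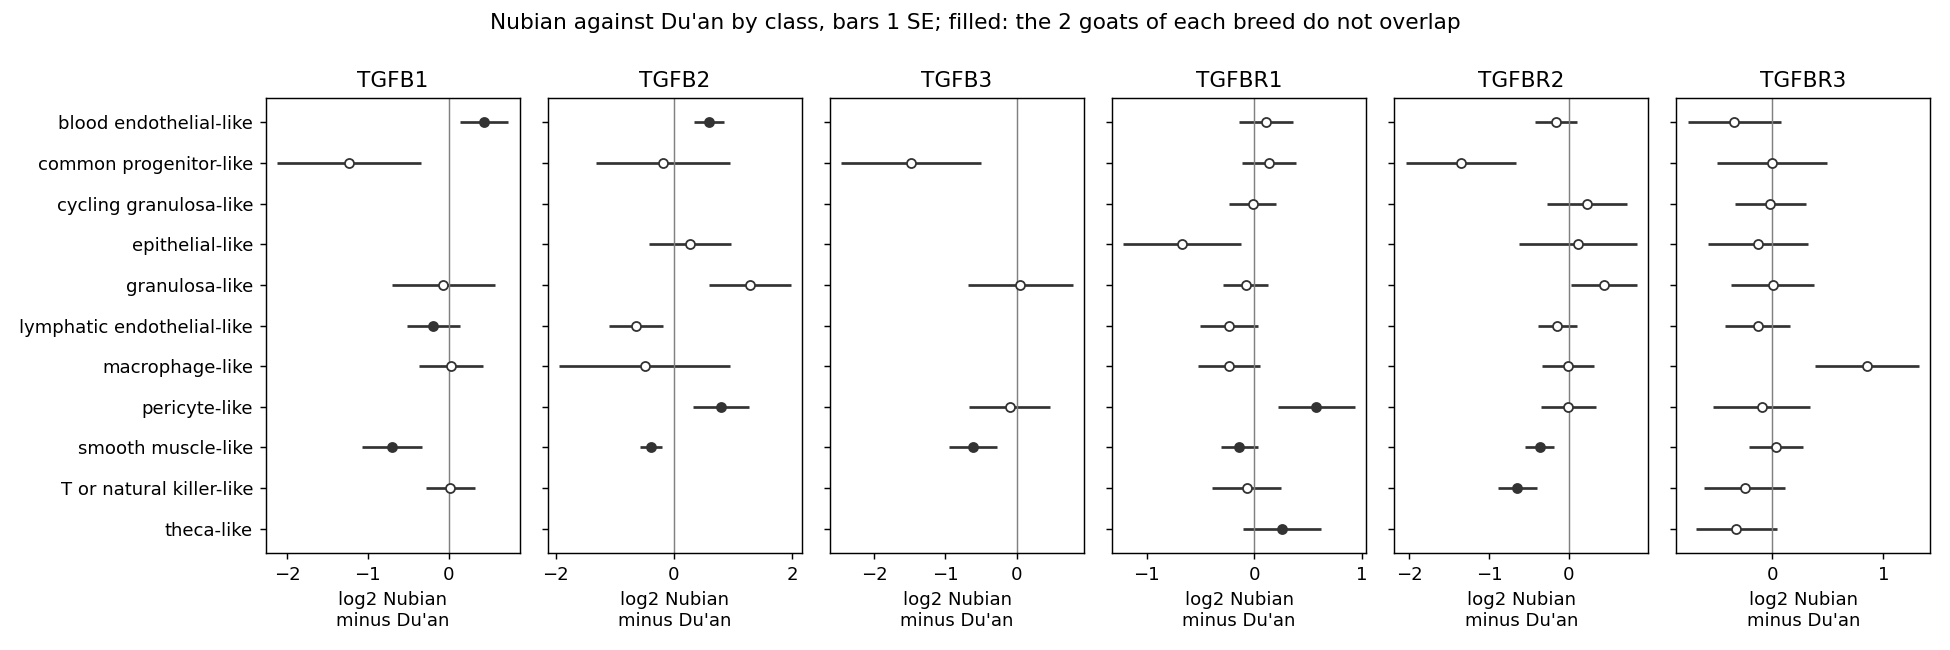
Log2 difference of Nubian from Du'an goats (horizontal axis, edgeR, bars 1 SE, 2 goats a breed) for each gene in each class; filled points mark pairs in which the goats of the breeds did not overlap. None passed the adjusted threshold, and in smooth muscle-like nuclei 5 of 6 points are filled, all of them below 0. Of these, TGFB1 and TGFB3 lie within the background scale.

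The pair under an unadjusted edgeR p of 0.05 was TGFBR2 in T or natural killer-like nuclei, at 222 and 181 CPM in Du'an and 125 CPM in both Nubian goats (log2 -0.65, SE 0.25, edgeR adjusted p = 0.332). The cytotoxic cluster, which was low in TGFBR2, was 2.80% of these nuclei in Du'an replicate 2 and 12.5% and 34.0% in the Nubian goats, and held under 20 nuclei in Du'an replicate 1. Its part in the difference was not tested. In the larger cluster alone TGFBR2 was 231 and 183 CPM in Du'an and 138 and 174 CPM in Nubian goats.

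In smooth muscle-like nuclei 5 of the 6 genes were lower in both Nubian than in both Du'an goats, where 17.9% of all genes were, and all 5 come from the same nuclei. TGFB1 was 8.76 and 9.65 CPM in Du'an and 5.90 and 4.79 CPM in Nubian goats there, and TGFB2 was 85.7 and 72.4 CPM and 58.3 and 59.5 CPM. Their log2 differences of -0.70 (SE 0.37) and -0.39 (SE 0.19) were not called (edgeR adjusted p = 0.999 for each). In blood endothelial-like nuclei TGFB1 and TGFB2 were higher in both Nubian goats, by 0.44 (SE 0.30) and 0.59 (SE 0.25), where 14.6% of all genes were. In pericyte-like nuclei TGFB2 and TGFBR1 were, by 0.80 (SE 0.47) and 0.58 (SE 0.36), where 16.3% of all genes were. The other pairs without overlap were TGFBR1 in theca-like nuclei, higher in both Nubian goats by 0.26 (SE 0.36; 14.0% of all genes), and TGFB1 in lymphatic endothelial-like nuclei, lower in both (-0.19, SE 0.33; 16.2%). None of these 6 was called.

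The wider pathway was described from a list of 52 genes, of which 51 passed the filter on low counts, all but CDKN2B. Over the 612 pairs of a listed gene and a class, 165 were higher and 138 lower, where 18.6% and 15.2% of all tests were. Blood endothelial-like nuclei had 23 of 51 higher, where 17.8% of all genes were, smooth muscle-like nuclei 22 (17.2%), lymphatic endothelial-like nuclei 21 (16.3%) and common progenitor-like nuclei 21 (20.3%). Granulosa-like nuclei had 24 of 51 lower, where 25.7% of all genes were, and T or natural killer-like nuclei 26 (27.9%).

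Among the 12 latency and activation genes, 8 were higher in lymphatic endothelial-like nuclei (16.3% of all genes), 8 lower in macrophage-like (24.0%) and 7 lower in granulosa-like nuclei (25.7%). LTBP2, by name a member of the latent TGF-beta binding protein family, was 116, 202, 78.2 and 149 CPM in lymphatic endothelial-like nuclei (5.19, SE 0.26, edgeR adjusted p = 6.46e-20). LRRC32, which holds latent TGF-beta on the cell surface, was 45.9, 33.3, 72.9 and 41.1 CPM in pericyte-like nuclei (4.79, SE 0.40, edgeR adjusted p = 2.17e-12). ITGB6, a subunit of an activating integrin, was 137, 51.6, 18.8 and 60.8 CPM in epithelial-like nuclei (6.68, SE 0.40, edgeR adjusted p = 3.25e-15). NRROS, the myeloid partner of latent TGFB1, had no UMI in epithelial-like nuclei and a mean of 164 CPM in macrophage-like nuclei.

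The 7 genes grouped as helpers and traps also include the type I receptor ACVRL1 and the inhibin subunit INHA. Of these 7 genes, 5 were higher in smooth muscle-like (17.2% of all genes) and 4 in blood endothelial-like nuclei (17.8%). In granulosa-like nuclei 5 were lower (25.7%). ENG, the endothelial co-receptor endoglin, was 128, 188, 109 and 206 CPM in blood endothelial-like nuclei (5.05, SE 0.19, edgeR adjusted p = 1.17e-24), and ACVRL1, an endothelial type I receptor, 71.3, 89.1, 59.3 and 83.6 CPM (4.98, SE 0.23, edgeR adjusted p = 1.33e-20). BGN, a matrix proteoglycan, was also higher there (3.79, SE 0.37). BAMBI, a decoy receptor, had a UMI in T or natural killer-like nuclei of 1 goat (-4.48, SE 0.96).

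Of the 9 SMADs and adaptors, 5 were higher in cycling granulosa-like (22.2% of all genes) and 5 in common progenitor-like nuclei (20.3%), and 0 lower in either (24.3% and 19.8%). SMAD2, a substrate of TGFBR1, stood at 2133, 2030, 2155 and 1996 CPM in cycling granulosa-like nuclei (2.35, SE 0.13, edgeR adjusted p = 5.41e-19), and SMAD3 at 316 to 453 CPM in common progenitor-like nuclei (1.46, SE 0.13, edgeR adjusted p = 5.32e-12). ZFYVE9, an anchor for SMADs, was lower in T or natural killer-like nuclei (-2.34, SE 0.17), as was the adaptor DAB2 in ciliated-like nuclei (-2.43, SE 0.61).

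The 12 genes listed as inhibitors were SMAD6, SMAD7, SKI, SKIL, SMURF1, SMURF2, PMEPA1, LDLRAD4, TGIF1, TGIF2, PPM1A and USP15. The grouping is that of the list, and whether each gene acts as an inhibitor here was not tested. Of these 12 genes, 6 were higher and 0 lower in blood endothelial-like nuclei (17.8% and 11.6% of all genes). In macrophage-like nuclei 6 were higher and 3 lower (29.9% and 24.0%), and in T or natural killer-like nuclei 6 and 4 (29.2% and 27.9%). In granulosa-like nuclei 5 were lower (25.7%), as were 5 in theca-like nuclei (9.26%). SMAD7 and the ubiquitin ligase SMURF1 were lower in cycling granulosa-like nuclei (-2.52, SE 0.46, and -2.67, SE 0.27), and SMAD6 and LDLRAD4 in theca-like nuclei (-2.92, SE 0.85, and -2.40, SE 0.36). Of the 11 known targets tested, 7 were higher in blood endothelial-like (17.8% of all genes), 7 in common progenitor-like (20.3%) and 7 in smooth muscle-like nuclei (17.2%). In granulosa-like nuclei 7 were lower (25.7%), and in cycling granulosa-like nuclei 8 were (24.3%). The matrix gene FN1 was 1184, 1078, 1042 and 1386 CPM in blood endothelial-like nuclei (5.13, SE 0.33, edgeR adjusted p = 8.67e-17). There ID1 and CTGF were higher too (3.75, SE 0.24, and 3.64, SE 0.28), and TGFBI was higher in macrophage-like nuclei (4.70, SE 0.36).

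The genes whose class means were most like those of each TGF-beta gene were found by Pearson's correlation over 12 classes, which share libraries and depth, so the values are a description. For TGFB1 they were YIPF4, RIN3 and LRRC8C (r from 0.943 to 0.974), and for TGFB2 CNTN1, OSMR and CDC42EP1 (0.922 to 0.955). LECT1, RASL11A and OLFML2B were nearest to TGFB3 (0.907 to 0.911). SCAF11, MRTO4 and TBRG4 were nearest to TGFBR1 (0.920 to 0.952), CAST, EEF2K and AHNAK to TGFBR2 (0.939 to 0.966), and LOC102179366, SCCPDH and CRYZ to TGFBR3 (0.895 to 0.899).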

How the data were processed

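For each goat the deposited matrix holds raw UMI counts (genes by nuclei), which the authors made with Cell Ranger (5.0.0 per the submitters' processing notes; the matrix headers give 3.1.0), filtered to nuclei and not normalized. The authors' 2 granulosa marker tables hold the fraction of nuclei with a UMI, printed here as percent, and fold changes and p-values, which were not used. The members and gene lists were chosen with earlier results of these data known.

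Nuclei within the mean ± 2 SD of UMIs and genes and with at most 20% mitochondrial UMIs were kept. Scrublet marked 151 nuclei (0.312%), all in Du'an replicate 2, too few for a working caller, so doublets remain; an alternative removed the 10% with the highest scores. Counts were log-normalized to 10000 UMIs. The 2000 variable genes left out the members, listed pathway genes and markers. 30 components and 20 neighbours gave Leiden clusters (scanpy 1.11.5, leidenalg 0.10.2) at a resolution of 0.8. A class took its name from marker lists if at least 3 markers were up at 10 CPM and a log2 fold of 1 with a mean log2 fold of 0.5; for granulosa subclusters, 0.4. These limits were chosen with the data in view. No subcluster met 3 cumulus markers, so subclusters 1 and 6 are called non-mural.

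UMI counts were summed per goat and class (at least 20 nuclei) and tested with edgeR 4.0.16 (R 4.3.3; TMM, filterByExpr, quasi-likelihood, Benjamini-Hochberg): 46 sums and 14726 genes for classes, 15 sums and 12759 genes for granulosa subtypes, both with the goat as a block. A class without any UMI of a gene has no finite log level, which made 35284 of 176712 tests against the mean of all other classes void; with these left out, 21 higher and 14 lower calls of the 6 genes remained, none of them for TGFB1 or TGFB3 outside the class at 0. So for the 3057 genes concerned, the mean was taken over the other classes with a UMI, a change made after the data were seen. On simulated data in which 100 genes lowered in pericyte-like sums had another class at 0, 59% were called, with 3 false calls. Without such zeros, 38% and 76% of changes of 1 and 2 on the log2 scale were recovered there, with 4 false calls, and 30% and 99% in the breed test of granulosa-like sums. The fold change of a class at 0 is given only as a bound from 3 UMIs. Breeds were compared without a block, 2 against 2 goats; nothing says the goats were matched.

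Named pathway genes were up to 4 per role with the largest log2 difference past the threshold, and the 3 genes most correlated with each member. Alternatives were other size factors, DESeq2 1.42.0, no filter, resolutions of 0.4 and 1.2, nuclei of at least 1000 UMIs, sums of at least 50 nuclei, and leaving out each goat. Sequences are not used here. No annotated gene overlapped a member in RefSeq ARS1.2, used for names only; the build of the files was not checked.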

Additional observations from a re-analysis of the deposited data

Results flagged for a closer look

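Of 65 groups of 4 goats (a gene in a class), 3 held a goat whose gap to the nearest other goat took a larger share of the range than Dixon's 95% critical value for 4 values. Chance gives about 1 in 20, and 3 of 65 is 4.62%.

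TGFB2 in lymphatic endothelial-like nuclei was 320 CPM in Du'an replicate 1, where the other goats had 119 to 149 CPM. TGFBR2 in common progenitor-like nuclei was 96.4 CPM in Du'an replicate 2, where the others had 20.5 to 27.9 CPM. In the same sum TGFBR1 was 82.4 CPM, below the 108 to 113 CPM of the other goats.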

How the results depend on the processing

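Of the 53 single differences of the 6 genes that were called, 39 kept their direction and their side of the threshold in every alternative that gave a value for them. Only 31 had a value in every alternative, 23 of which were kept in all: 40 had one against the mean of all other classes, 46 at a resolution of 0.4, 48 at 1.2, 48 with the genes kept among the variable genes, 51 without Du'an replicate 2 and 51 without Nubian replicate 2. The differences that crossed 0 did so after reclustering: TGFB1 in epithelial-like nuclei at a resolution of 1.2 (0.21, adjusted p = 0.706), and TGFB2 and TGFB3 in macrophage-like nuclei at 0.4 (0.024 and 0.039, adjusted p = 0.967 and 0.954). The cause was not tested. Over the goats left out in turn, the 6 genes had 21 to 27 higher and 18 to 20 lower calls by class, and 4 to 5 higher and 0 to 1 lower by granulosa subtype; the pathway list had 133 to 148 and 115 to 130. DESeq2 called 3 subtype differences lower, where edgeR called 0. Between breeds 0 of the 6 genes passed in any alternative, while over all genes edgeR's 0 higher and 0 lower became 299 and 39 with DESeq2, 1191 and 481 with no filter on low counts, and 39 to 625 and 23 to 271 with 1 goat left out, which leaves 1 breed with a lone goat assumed to vary like the others. The replicate number as a block gave 0 and 0 for the 6 genes and for all genes. Same-numbered goats' deviations correlated at -0.31 to 0.31, over 0.1 in 2 of 11 classes, so the numbers only name goats. DESeq2's size factors shifted the median of all genes by -0.25 in granulosa-like, -0.24 in common progenitor-like and 0.17 in macrophage-like nuclei, and called 26 higher and 18 lower. Small sums limit the pericyte-like, theca-like and ciliated-like values.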
